A study of Mus musculus with 35 samples.

Results

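The cannabinoid receptor gene Cnr1 and 7 genes for enzymes that make or break down its ligands, Dagla, Daglb, Napepld, Mgll, Abhd6, Abhd12 and Faah, were followed across the striata of 35 mice, with 1 RNA-seq library per mouse. They were chosen by symbol from the 39109 entries of the count table, each symbol matched 1 entry, and all 8 passed the count filter in every comparison. The groups were 8 Htt+/+ Hdac2+/+ mice, 7 HttQ111/+ Hdac2+/+ mice, 9 Htt+/+ Hdac2D/D mice and 11 HttQ111/+ Hdac2D/D mice, aged 21.7 to 23 weeks. HttQ111 is a huntingtin knock-in allele with a lengthened CAG tract, which measured 110 to 140 in the HttQ111/+ Hdac2+/+ mice, 110 to 144 in the HttQ111/+ Hdac2D/D mice and 7 in the Htt+/+ mice. Hdac2D/D mice carry 2 floxed alleles of the histone deacetylase gene Hdac2 and a Cre transgene driven by the promoter of Ppp1r1b (DARPP-32), so that the deletion falls in medium spiny neurons (MSNs), which make up most striatal neurons, while the other striatal cells keep Hdac2. No Hdac2+/+ mouse carried Cre, and an effect of Cre cannot be told apart from one of the deletion. Most Hdac2+/+ mice were homozygous for the floxed allele without Cre.

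The endocannabinoid system signals backward across the synapse. A postsynaptic neuron makes the lipids 2-arachidonoylglycerol (2-AG) and anandamide, and these act on the receptor CB1, encoded by Cnr1, on the presynaptic terminal and lower transmitter release. In the striatum, CB1 is abundant in MSNs and on their axons, and it takes part in the long-term depression of inputs from the cortex. DAGLα and DAGLβ (Dagla, Daglb) make 2-AG, and NAPE-PLD (Napepld) makes anandamide and related N-acylethanolamines. Monoacylglycerol lipase (Mgll), ABHD6 and ABHD12 hydrolyse 2-AG, and FAAH hydrolyses anandamide.

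In both Htt genotypes, Hdac2D/D striata had less Dagla and more Faah RNA than Hdac2+/+ striata, with folds of 0.74 and 1.47 in Htt+/+ mice and of 0.78 and 1.34 in HttQ111/+ mice, although the Faah rise in HttQ111/+ mice depended on how hidden variation was modelled. Cnr1 was lower in Hdac2D/D than in Hdac2+/+ striata in Htt+/+ mice (fold 0.73), a call that held in 12 of 15 other fits. It did not pass the test in HttQ111/+ mice (fold 0.94), but the interaction did not pass either (adjusted p = 0.875, edgeR quasi-likelihood F test). Days of RNA extraction nearly followed the Hdac2 genotype, so for most mice day and genotype cannot be told apart. The Q111 allele alone put no member past the adjusted threshold. Among mice with the V prefix in their ID, a split chosen after the values were seen, Cnr1 was lower and Faah higher in HttQ111/+ than in Htt+/+ mice. Their Q111 repeats were the longest, so ID prefix and repeat length cannot be told apart. Whether these effects differed from those in the other mice depended on the fit. Of 11 MSN markers, 10 were lower in HttQ111/+ mice with the V prefix, where 6.18% of all genes passed, and their part was not tested.

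Promoter sequence is shown for Cnr1, called lower, and Faah, called higher, with the loss of Hdac2 in Htt+/+ mice. It covers the 250 bases before the most upstream start site in RefSeq on GRCm38.p6. Of the 8 members, 6 had a RefSeq promoter entry. Dagla, also called lower in Htt+/+ mice, and Abhd12 had none, and the window of Abhd6, called lower in HttQ111/+ mice, is not printed. Capitals mark the GC box GGGCGG, read on both strands, which 33% of the 32536 promoter windows of this length held. The Cnr1 window covers chr4:33924014-33924263 on the plus strand, and the Faah window covers chr4:116017925-116018174 on the minus strand.
Cnr1: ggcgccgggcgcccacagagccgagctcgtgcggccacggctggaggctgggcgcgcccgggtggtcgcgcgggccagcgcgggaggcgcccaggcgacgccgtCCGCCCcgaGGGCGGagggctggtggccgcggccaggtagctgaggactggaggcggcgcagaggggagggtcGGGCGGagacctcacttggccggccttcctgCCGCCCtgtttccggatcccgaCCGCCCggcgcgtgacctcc
Faah: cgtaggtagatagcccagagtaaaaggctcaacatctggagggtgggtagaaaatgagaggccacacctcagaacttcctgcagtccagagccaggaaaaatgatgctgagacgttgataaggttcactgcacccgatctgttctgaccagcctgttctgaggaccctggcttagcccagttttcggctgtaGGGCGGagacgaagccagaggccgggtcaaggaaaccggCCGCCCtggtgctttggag
The Cnr1 window held 5 GC boxes and had a GC content of 79.2%. The Faah window held 2 and had a GC content of 55.6%. The most upstream windows of Daglb, Napepld, Mgll and Abhd6 held 0. The E-box CACGTG, found in 6.04% of windows, occurred once in that of Mgll, and CCAAT, found in 33.8%, once in that of Abhd6. Neither TGACGTCA (1.56% of windows) nor TATAAA (12.3%) was present in any of the 6 windows, both strands searched. Cnr1 has 3 RefSeq starts and Mgll and Abhd6 have 2 each, and those downstream are not shown. The downstream windows held 0 GC boxes for Cnr1 and 1 each for Mgll and Abhd6, and 1 of those of Cnr1 held an E-box.

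The counts on genes ranged from 50339179 to 76939791 per library. The members were well covered, from 390 to 751 counts for Napepld to 19817 to 42767 for Cnr1, and levels are given as CPM, counts relative to library size, scaled by TMM. RNA was extracted on 6 days that nearly followed the Hdac2 genotype, Hdac2+/+ on 24, 25 and 27 May and Hdac2D/D on 26 May, 31 May and 3 June, apart from 1 HttQ111/+ Hdac2D/D library of 25 May and 1 Htt+/+ Hdac2D/D library of 27 May. Hdac2 itself, counted over its whole interval, was at 103 ± 3.42 CPM (SD, n = 8) in Htt+/+ Hdac2+/+ and 94.4 ± 2.98 CPM (SD, n = 9) in Htt+/+ Hdac2D/D striata. All 11 MSN markers were present, and their summed level had a median of 10870 CPM in Htt+/+ Hdac2+/+, 7831 in HttQ111/+ Hdac2+/+, 10654 in Htt+/+ Hdac2D/D and 9122 in HttQ111/+ Hdac2D/D libraries. In bulk tissue, fewer cells of a type and less RNA per cell cannot be told apart. Replicate 7 of HttQ111/+ Hdac2+/+ stood apart, with a sum of 385 CPM over 3 markers of cortical projection neurons (Slc17a7, Tbr1, Neurod6) against 3.25 to 151 CPM in the other 34 libraries, and where leaving it out made or ended a call of a member, both values are given.

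Per kilobase of exon (GENCODE M21, GRCm38), Abhd12 and Cnr1 had the highest levels, with 95.7 ± 4.60 and 81.4 ± 19.1 CPM per kb (SD, n = 35). They did not differ beyond their spread, since single libraries covered 86.0 to 104 for Abhd12 and 50.0 to 124 for Cnr1. Mgll followed at 31.0 ± 3.77, Dagla at 16.7 ± 2.89 and Abhd6 at 8.82 ± 0.754 CPM per kb (SD, n = 35). Dagla was thus the main diacylglycerol lipase transcript, ahead of Daglb at 2.71 ± 0.214 CPM per kb (SD, n = 35), with no overlap between the libraries of both genes. The lowest 3 were Faah at 2.81 ± 0.637, Daglb and Napepld at 2.07 ± 0.216 CPM per kb (SD, n = 35), and their ranges overlapped. The counting covers whole intervals, introns included, so these levels per exon length also hold intronic reads. The order depended on the length used. Per kilobase of the whole interval, Cnr1 had 21.7, Abhd12 3.75, Dagla 1.61 and Mgll 1.51 CPM. Daglb then had 0.650, Faah 0.436, Abhd6 0.394 and Napepld 0.212 CPM per kb.

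**Figure D1:**
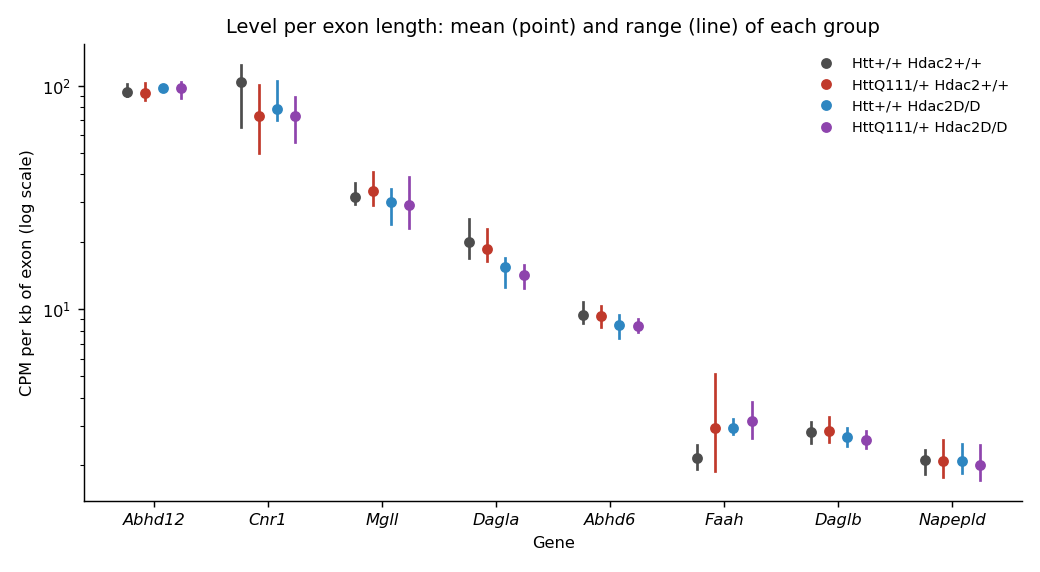
Level of each gene in CPM per kb of exon on a log axis, with the mean (point) and the range of libraries (line) in each of the 4 groups. Abhd12 and Cnr1 lie at the top, Faah, Daglb and Napepld at the bottom, and only Cnr1, Dagla and Faah move visibly between groups.

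The receptor gene Cnr1 (ENSMUSG00000044288, GRCm38 chromosome 4, 33924593 to 33948819, plus strand) was highest in Htt+/+ Hdac2+/+ striata, where the lowest, median and highest libraries had 422, 687 and 798 CPM. In HttQ111/+ Hdac2+/+ striata these were 322, 486 and 649 CPM. In Htt+/+ Hdac2D/D striata they were 451, 470 and 678 CPM, and in HttQ111/+ Hdac2D/D striata 360, 491 and 570 CPM. All but 1 of the Htt+/+ Hdac2+/+ libraries lay at 606 CPM or above, a level that 1 library in each of the HttQ111/+ Hdac2+/+ and Htt+/+ Hdac2D/D groups and none in the fourth group reached. Every pair of groups overlapped. The means were 669 ± 121 (SD, n = 8), 469 ± 119 (SD, n = 7), 508 ± 74.0 (SD, n = 9) and 469 ± 78.5 CPM (SD, n = 11) in the same order.

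Dagla (ENSMUSG00000035735, chromosome 19, 10245265 to 10304857, minus strand) separated the Hdac2 genotypes. Its lowest, median and highest libraries had 97.3, 113 and 145 CPM in Htt+/+ Hdac2+/+ and 94.1, 103 and 130 CPM in HttQ111/+ Hdac2+/+ striata. In Hdac2D/D striata they had 72.4, 90.0 and 97.3 CPM in Htt+/+ and 71.2, 81.1 and 90.5 CPM in HttQ111/+ mice. Within each Htt genotype the groups did not overlap, but in Htt+/+ mice the lowest Hdac2+/+ library (97.349 CPM) and the highest Hdac2D/D library (97.303 CPM) were nearly level. The group means were 115 ± 14.2 (SD, n = 8), 106 ± 12.6 (SD, n = 7), 88.2 ± 7.01 (SD, n = 9) and 81.9 ± 5.72 CPM (SD, n = 11).

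Faah (ENSMUSG00000034171, chromosome 4, 115967145 to 116017697, minus strand) was lowest in Htt+/+ Hdac2+/+ striata, at 15.0, 16.4 and 19.3 CPM in the lowest, median and highest library. In Htt+/+ Hdac2D/D striata the same values were 21.5, 22.5 and 25.3 CPM, with no overlap with Htt+/+ Hdac2+/+. In HttQ111/+ Hdac2D/D striata they were 20.7, 23.0 and 30.1 CPM. HttQ111/+ Hdac2+/+ libraries spread the most, with 14.8, 16.8 and 17.4 CPM in 3, 23.1, 23.2 and 25.4 CPM in another 3 and 39.9 CPM in replicate 7. The mean of that group was 22.9 ± 8.45 CPM (SD, n = 7), and 20.1 ± 4.31 CPM (SD, n = 6) without replicate 7. The other groups had means of 16.8 ± 1.32 (SD, n = 8, Htt+/+ Hdac2+/+), 22.9 ± 1.36 (SD, n = 9, Htt+/+ Hdac2D/D) and 24.6 ± 2.97 CPM (SD, n = 11, HttQ111/+ Hdac2D/D).

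**Figure D2:**
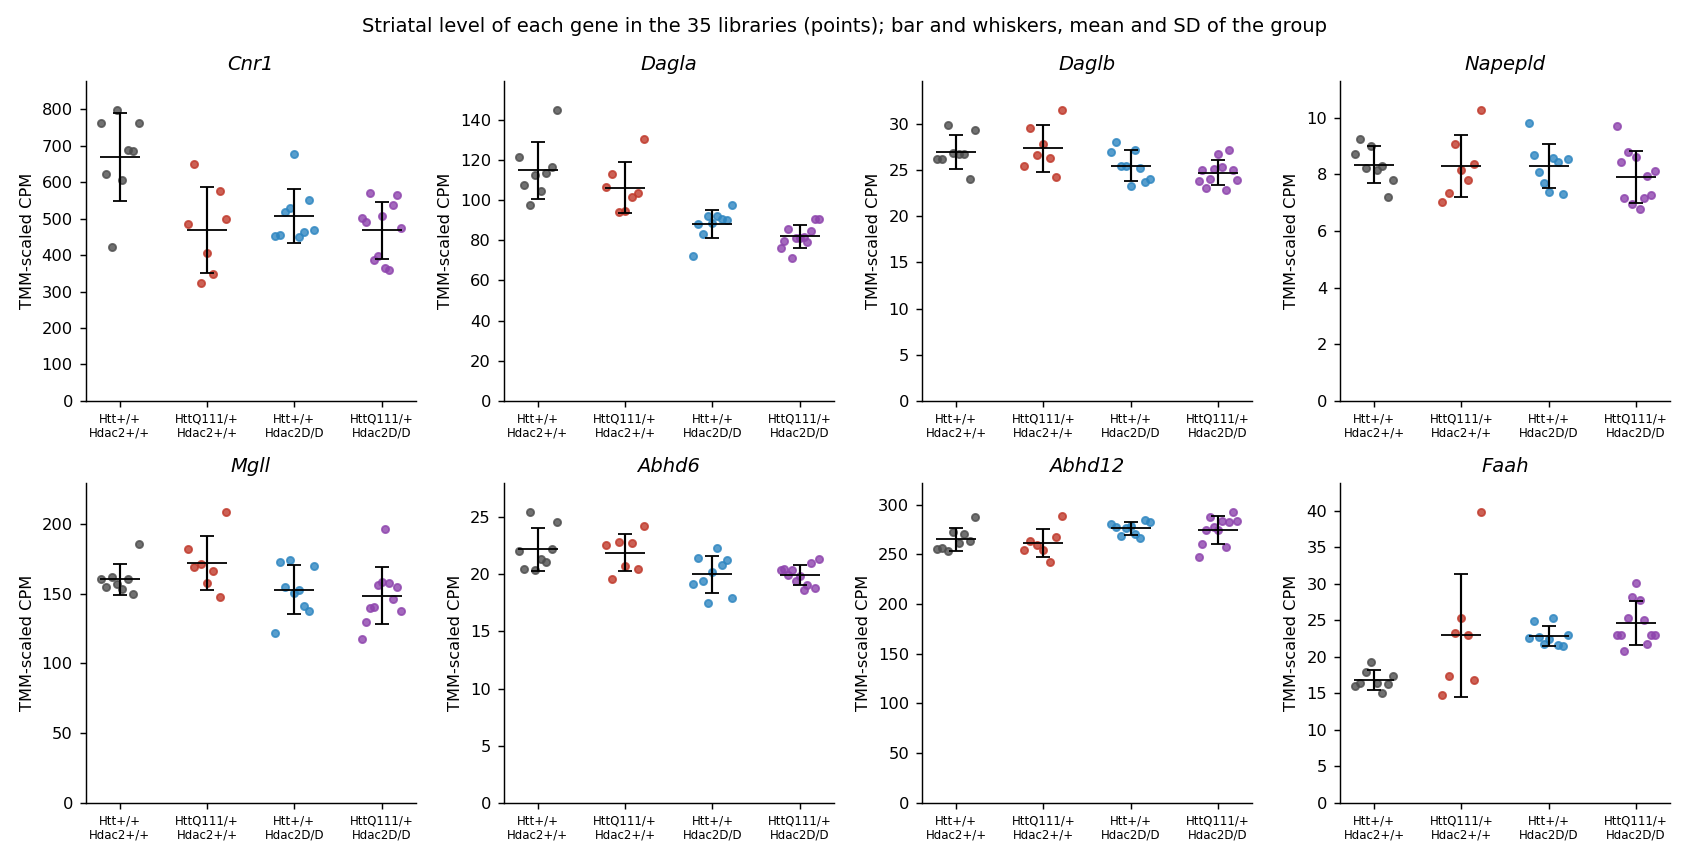
TMM-scaled CPM of the 8 genes in each of the 35 libraries (points) by genotype group, with the group mean and SD, on axes that start at 0. Dagla steps down and Faah up from Hdac2+/+ to Hdac2D/D in Htt+/+ mice, Cnr1 is highest in Htt+/+ Hdac2+/+ mice, and the other 5 genes stay level within their spread or nearly so.

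The other 5 genes varied less. Group means of Daglb (ENSMUSG00000039206, chromosome 5, 143464493 to 143504442, plus strand) lay between 24.7 and 27.3 CPM, and those of Napepld (ENSMUSG00000044968, chromosome 5, 21662901 to 21701396, minus strand) between 7.90 and 8.33 CPM. Mgll (ENSMUSG00000033174, chromosome 6, 88724412 to 88828360, plus strand) had means of 149 to 172 CPM, and Abhd6 (ENSMUSG00000025277, chromosome 14, 8002902 to 8055861, plus strand) of 19.9 to 22.2 CPM. Abhd12 (ENSMUSG00000032046, chromosome 2, 150832493 to 150904647, minus strand) was the steadiest, with means of 261 to 276 CPM and a coefficient of variation of 4.81% over the 35 libraries, against 23.5% for Cnr1 and 22.6% for Faah. Mgll overlaps the antisense gene Gm26588, which was counted at 0.791 to 1.75 CPM. The pseudogene Gm15719 within Napepld reached at most 0.0373 CPM, and the snoRNA gene Gm23598 within Abhd12 was at 0 in all libraries. Whether strand was used in the counting is not stated, so reads of Gm26588 and Mgll in their shared stretch cannot be told apart.

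The first comparison asked what the loss of Hdac2 in MSNs changes in mice with a normal Htt gene. Of the 8 members, 3 passed the adjusted threshold between Htt+/+ Hdac2D/D and Htt+/+ Hdac2+/+ striata, where 17.8% of the 17126 genes tested passed. Dagla fell (log2 fold change −0.43, SE 0.038, adjusted p = 1.32e-09 by the edgeR quasi-likelihood F test, Benjamini-Hochberg over all genes tested). Cnr1 fell as well (−0.45, SE 0.15, adjusted p = 0.0289), and Faah rose (0.56, SE 0.079, adjusted p = 5.22e-06). The CPM ranges of both groups did not overlap for Dagla and Faah, 2 of the 8 members, as for 4.70% of all genes tested. Mgll (−0.13, SE 0.055, adjusted p = 0.0975) and Abhd6 (−0.11, SE 0.052, adjusted p = 0.147) did not pass, and Daglb, Napepld and Abhd12 had log2 fold changes between −0.10 and 0.06. The median over the members was −0.10, against −0.00 over all genes. Of the 11 MSN markers, 2 were higher and 2 lower, and their part in these values was not tested. The Cnr1 call was lost with extraction date replacing the surrogate variables (−0.30, adjusted p = 0.423), with the replicate block (−0.45, adjusted p = 0.31) and in males only (−0.35, adjusted p = 0.126), and the Faah call with extraction date (0.29, adjusted p = 0.365).

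The second comparison asked the same in mice with the Q111 allele, and 3 of 8 members passed, where 16.5% of the 17169 genes tested did. Dagla was lower in HttQ111/+ Hdac2D/D than in HttQ111/+ Hdac2+/+ striata (log2 fold change −0.36, SE 0.034, adjusted p = 7.73e-09, same edgeR test), and its CPM ranges did not overlap, as for 1.43% of genes. Faah was higher (0.42, SE 0.069, adjusted p = 4.74e-05). Abhd6, a hydrolase of 2-AG on the postsynaptic side, was lower (−0.17, SE 0.045, adjusted p = 0.008). Cnr1 did not pass, with a log2 fold change of −0.09 and a 95% interval from −0.34 to 0.15. Mgll had −0.13 (SE 0.050, adjusted p = 0.064), and Daglb, Napepld and Abhd12 had −0.09, 0.01 and 0.05. The median over the members was −0.09, and −0.00 over all genes. The Faah value rests on the surrogate variables, since without them it was 0.10 (adjusted p = 0.626), and with extraction date in their place −0.10 (adjusted p = 0.849), while without replicate 7 of HttQ111/+ Hdac2+/+ it was 0.43 (adjusted p = 9.55e-06). Of the 11 MSN markers, 2 were higher and 0 lower in this comparison. The Dagla call was lost with extraction date (−0.32, adjusted p = 0.153), and that of Abhd6 in 6 of 15 alternatives (adjusted p 0.00378 to 0.451 over the 15).

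Averaged over both Htt genotypes, 5 of 8 members differed between Hdac2D/D and Hdac2+/+ striata, where 25.0% of the 17346 genes tested did. The synthetic enzyme Dagla (−0.39, SE 0.029, adjusted p = 9.37e-12) and the 2-AG hydrolases Abhd6 (−0.14, SE 0.038, adjusted p = 0.00658) and Mgll (−0.13, SE 0.042, adjusted p = 0.0179) were lower. Faah (0.50, SE 0.058, adjusted p = 9.71e-08) and Abhd12 (0.06, SE 0.020, adjusted p = 0.0401) were higher in log2 terms. In mice with an A or Z prefix in their ID, mean Mgll went from 167 to 146 CPM in Htt+/+ and from 177 to 138 CPM in HttQ111/+ mice. With the V prefix it went from 157 to 167 and from 165 to 162 CPM, and this split of the Hdac2 effect was not tested. Cnr1 (−0.27, SE 0.11, adjusted p = 0.0602) missed the threshold. It passed without replicate 7 of HttQ111/+ Hdac2+/+ (−0.32, adjusted p = 0.0113), without replicate 9 of Htt+/+ Hdac2+/+ (−0.30, adjusted p = 0.0419) and without replicate 4 of Htt+/+ Hdac2+/+ (−0.33, adjusted p = 0.0201). Mgll did not pass without replicate 9 (adjusted p = 0.0541) or replicate 4 (adjusted p = 0.0816) of Htt+/+ Hdac2+/+, and Abhd12 not without that replicate 4 (adjusted p = 0.0677) or replicate 7 of HttQ111/+ Hdac2+/+ (adjusted p = 0.0568), while Daglb passed without replicate 7 (−0.10, adjusted p = 0.044). Over all 14 alternatives, Abhd12 passed in only 6 (adjusted p 0.0012 to 0.994) and Mgll in 9 (0.0089 to 0.232). Mgll also failed with extraction date, with the replicate block and in males only. Abhd6 passed in 11, and Dagla and Faah each in 13. The interaction, which asks whether the Htt effect differs between the Hdac2 backgrounds, put 0 members past the threshold (0 also with DESeq2 and limma-voom), where 0.00577% of genes passed. At an unadjusted p under 0.05, 1 member passed, Cnr1 (0.37, SE 0.17, p = 0.041 and adjusted p = 0.875 from edgeR), where 5.63% of genes did.

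**Figure D3:**
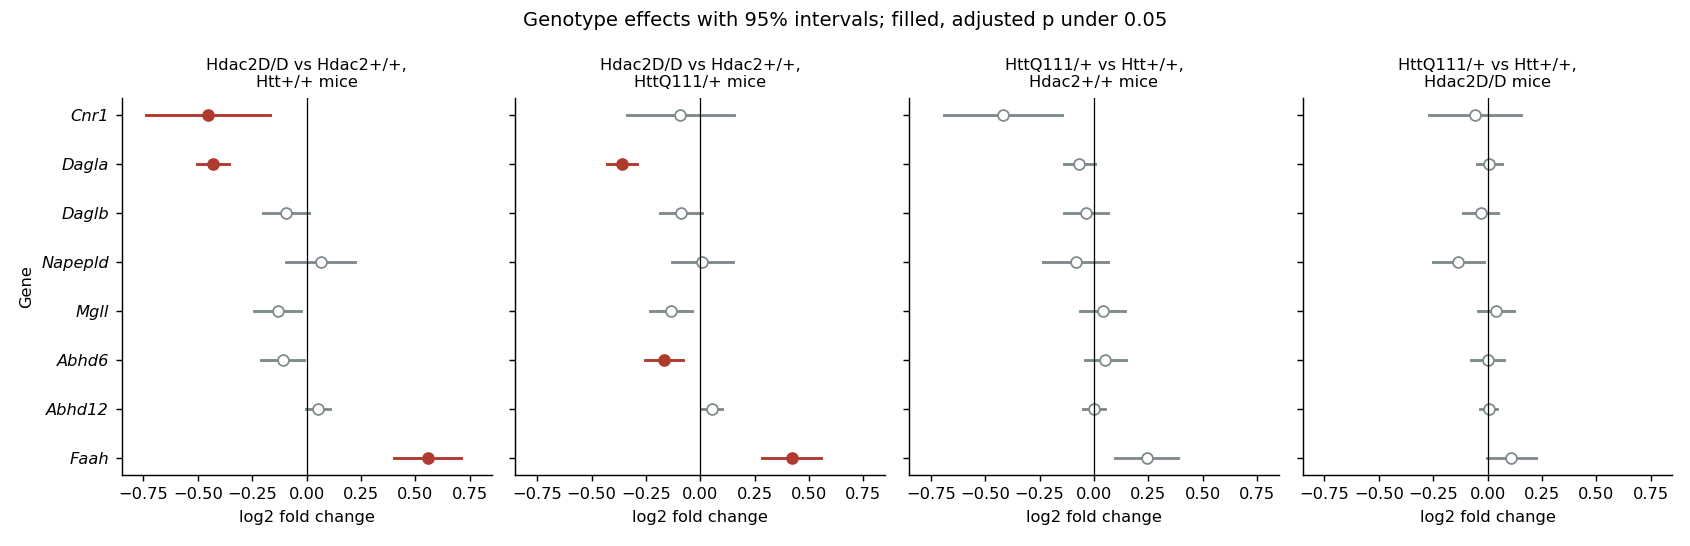
Log2 fold change of each gene with its 95% interval in the 4 genotype comparisons, filled where the adjusted p was under 0.05. Dagla lies below 0 and Faah above 0 in both Hdac2 comparisons, and Cnr1, with wide intervals, lies at −0.45 for Hdac2 in Htt+/+ mice and at −0.42 for Htt in Hdac2+/+ mice.

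The days of RNA extraction allow a look within a day for 2 Hdac2D/D libraries. On 27 May, the Htt+/+ Hdac2D/D library had 22.9 CPM of Faah, above the 15.0 to 19.3 CPM of the 3 Htt+/+ Hdac2+/+ libraries. Its Dagla level of 97.3 CPM was level with the lowest of their 97.3 to 114 CPM, and its Cnr1 level of 470 CPM lay within their 422 to 798 CPM. That Hdac2D/D mouse had the Z prefix in its ID and the 3 Hdac2+/+ mice had the V prefix. On 25 May, the HttQ111/+ Hdac2D/D library had 76.3 CPM of Dagla, below the 94.4 and 130 CPM of the 2 HttQ111/+ Hdac2+/+ libraries, and 501 CPM of Cnr1, above their 405 and 499 CPM. Its 23.0 CPM of Faah lay below their 25.4 and 39.9 CPM. The values of 130 CPM for Dagla and 39.9 CPM for Faah are those of replicate 7, the library with high cortical markers. These mice also differed in ID prefix and repeat length, A with 118 against V with 131 and, in replicate 7, Z with 113. The remaining 18 Hdac2D/D libraries share no day with Hdac2+/+ mice, so for them day and genotype cannot be told apart.

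**Figure D4:**
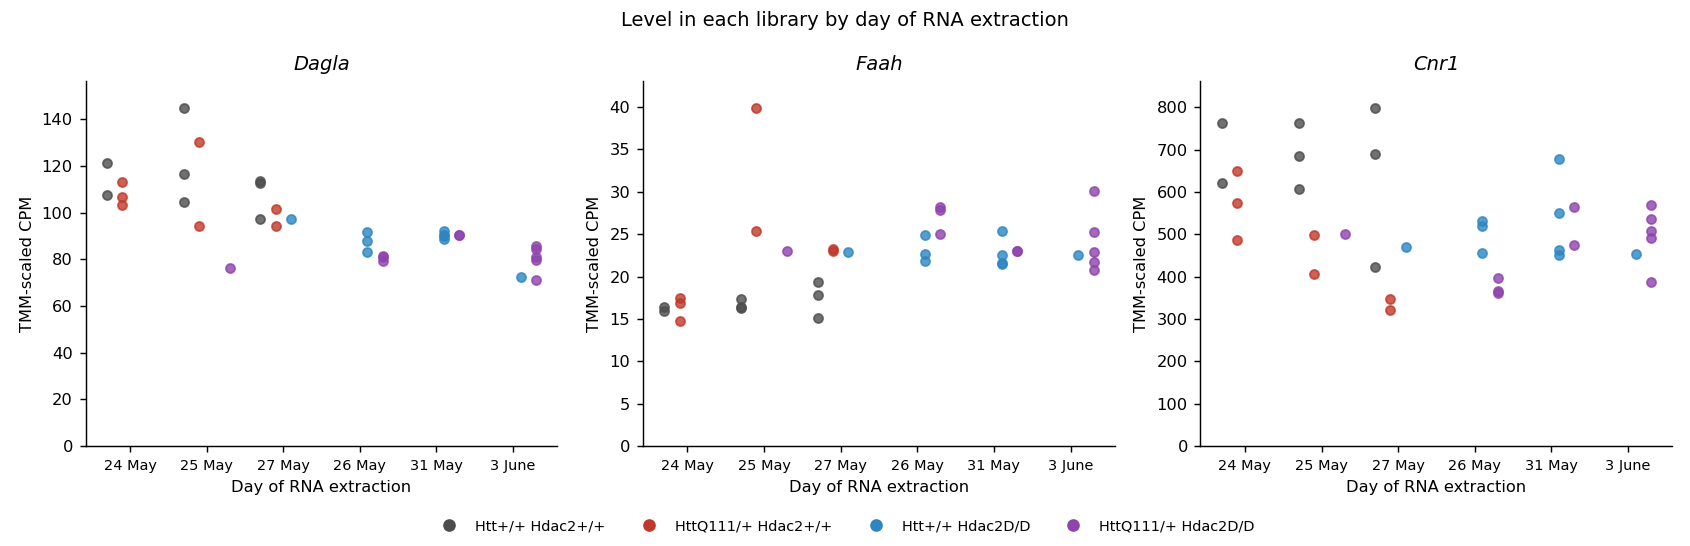
TMM-scaled CPM of Dagla, Faah and Cnr1 in each library by day of RNA extraction, coloured by group, with axes from 0. The 3 days drawn on the left hold the Hdac2+/+ libraries and 2 Hdac2D/D libraries, the 3 on the right only Hdac2D/D libraries, and the Dagla values on the right reach at most 91.9 CPM.

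The effect of the Q111 allele was then asked within each Hdac2 genotype. Between HttQ111/+ Hdac2+/+ and Htt+/+ Hdac2+/+ striata, 0 of 8 members passed the adjusted threshold with edgeR, and 0 with DESeq2 or limma-voom, where 0.403% of the 17133 genes tested passed with edgeR. At an unadjusted p under 0.05, 2 members passed, where 10.9% of genes did. These were Cnr1 (−0.42, SE 0.14, p = 0.00523 and adjusted p = 0.215 from edgeR) and Faah (0.24, SE 0.075, p = 0.00295 and adjusted p = 0.174, or 0.18 with adjusted p = 0.323 without replicate 7 of HttQ111/+ Hdac2+/+). Both passed the adjusted threshold with ID series and sex as covariates (Cnr1 −0.59, adjusted p = 0.00255; Faah 0.44, adjusted p = 0.02) and with extraction date (Cnr1 −0.60, adjusted p = 0.00764; Faah 0.47, adjusted p = 0.0141). Of the 11 MSN markers, 5 were lower and 0 higher in this comparison, and whether they have a part in the Cnr1 value was not tested. In Hdac2D/D mice, 0 of 8 members passed with edgeR, DESeq2 or limma-voom, where 0.00584% of the 17110 genes tested passed with edgeR, and 1 member, Napepld (−0.13, SE 0.060, p = 0.0328, adjusted p = 0.624 from edgeR), had an unadjusted p under 0.05, as did 7.52% of genes. The 95% interval for Cnr1 there ran from −0.27 to 0.15 and that for Faah from −0.00 to 0.22. Averaged over both Hdac2 genotypes, 0 members passed (1.27% of genes) and 3 had an unadjusted p under 0.05 (12.3% of genes), Faah at 0.18 (SE 0.048, adjusted p = 0.0552), Cnr1 at −0.24 (SE 0.088, adjusted p = 0.217) and Napepld at −0.11 (SE 0.049, adjusted p = 0.368). Of the 11 MSN markers, 8 were lower and 0 higher. Faah passed in 5 of 14 alternatives, among them DESeq2 (adjusted p = 0.018), limma-voom (adjusted p = 0.0396) and the fit without replicate 4 of Htt+/+ Hdac2+/+ (0.20, adjusted p = 0.0466). It was at 0.13 (adjusted p = 0.215) without replicate 7 of HttQ111/+ Hdac2+/+ and at 0.11 (adjusted p = 0.429) in males only, and the adjusted p ran from 0.0177 to 0.565 over the 14.

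Carrying both alleles, HttQ111/+ Hdac2D/D against Htt+/+ Hdac2+/+ striata had 3 of 8 members past the threshold, where 21.2% of the 17088 genes tested passed. Dagla was lower (−0.43, SE 0.036, adjusted p = 5.25e-10), Cnr1 was lower (−0.52, SE 0.14, adjusted p = 0.00582) and Faah was higher (0.66, SE 0.073, adjusted p = 5.35e-08, all from edgeR). The ranges of both groups did not overlap for Dagla and Faah, as for 3.28% of genes. Of the 11 MSN markers, 9 were lower and 1 higher in this comparison, as were 2 and 0 of 6 astrocyte markers, and their part in these values was not tested. The summed MSN marker level was 8094 to 10315 CPM in HttQ111/+ Hdac2D/D and 9953 to 11409 CPM in Htt+/+ Hdac2+/+ libraries. This comparison shares its control mice with those above, so its values are not independent of them. The Cnr1 call was lost with the replicate block (−0.32, adjusted p = 0.304) and with extraction date (−0.47, adjusted p = 0.182), and the Faah call with extraction date (0.37, adjusted p = 0.217). Daglb passed without replicate 7 of HttQ111/+ Hdac2+/+ (−0.14, adjusted p = 0.0277, against 0.0868 with it).

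The levels were also set out by the letter of the mouse ID, a split chosen after the values were seen. HttQ111/+ mice of series V had CAG repeats of 131 to 144 and those of series A and Z 110 to 118, so repeat length and series cannot be told apart. Cnr1 in the 3 HttQ111/+ Hdac2+/+ libraries of series V was 322, 348 and 405 CPM, below all 4 libraries of series A and Z at 486 to 649 CPM. In HttQ111/+ Hdac2D/D mice, the 5 V libraries had 360 to 508 CPM and the 6 A and Z libraries 474 to 570 CPM, with an overlap of 1 V library. The Htt+/+ mice of series V had 640 ± 140 CPM (SD, n = 5) in Hdac2+/+ against 716 ± 81.7 (SD, n = 3) in A and Z, and 502 ± 40.9 (SD, n = 3) in Hdac2D/D against 511 ± 89.7 CPM (SD, n = 6). The Hdac2+/+ libraries among them ran from 422 to 798 CPM in series V and from 622 to 764 CPM in A and Z. In series V the average Htt effect on Cnr1 was −0.57 (SE 0.11, adjusted p = 0.00158 from edgeR), and 2 of 8 members passed, where 6.18% of genes did. The second was Faah (0.33, SE 0.072, adjusted p = 0.00476). In series A and Z, 0 members passed with edgeR (0.190% of genes), and 1, Faah, had an unadjusted p under 0.05 (0.17, SE 0.058, p = 0.00572). That value rested on replicate 7 of HttQ111/+ Hdac2+/+, without which it was 0.01 (SE 0.055, p = 0.844). Cnr1 in series A and Z had −0.06 (SE 0.089, adjusted p = 0.964). The difference between the series was −0.50 for Cnr1 (SE 0.13, adjusted p = 0.0434), the 1 member that passed, where 1.97% of genes did.

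That difference did not hold in the 2 other fits made. Without replicate 7 of HttQ111/+ Hdac2+/+ it was −0.46 for Cnr1 (SE 0.16, adjusted p = 0.266), with sex in place of the surrogate variables −0.41 (SE 0.14, adjusted p = 0.429), whereas the series V effect itself passed in both, at −0.53 (adjusted p = 0.00634) and −0.58 (adjusted p = 0.000489). For Faah the difference was 0.15 (SE 0.086, adjusted p = 0.454), and without replicate 7, a series Z library, it was 0.35 (SE 0.079, adjusted p = 0.0324). In the 5 V libraries of HttQ111/+ Hdac2D/D mice Faah was at 25.0 to 30.1 CPM, above all 6 libraries of A and Z at 20.7 to 23.0 CPM. In HttQ111/+ Hdac2+/+ mice the 3 V libraries had 23.1 to 25.4 CPM, above the 14.8 to 17.4 CPM of the A and Z libraries other than replicate 7. Set against the Hdac2D/D mice of the same series, the A and Z values did not overlap apart from replicate 7, while the V values did, at 25.0 and 25.3 CPM in 2 Hdac2D/D libraries and 25.4 CPM in 1 Hdac2+/+ library. In HttQ111/+ mice of series V, 10 of the 11 MSN markers were lower and 0 higher, where 6.18% of all genes passed. In A and Z, 5 were lower and 0 higher, where 0.190% of all genes passed and Cnr1 did not. The part of these markers in the Cnr1 and Faah values was not tested. Their summed level was 7361 to 7831 CPM in the HttQ111/+ Hdac2+/+ libraries of series V and 8930 to 9987 CPM in 3 of those of A and Z, while the fourth, replicate 7, had 7414 CPM. In HttQ111/+ Hdac2D/D mice it was 8094 to 8909 CPM in series V and 9122 to 10315 CPM in A and Z, with no overlap.

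**Figure D5:**
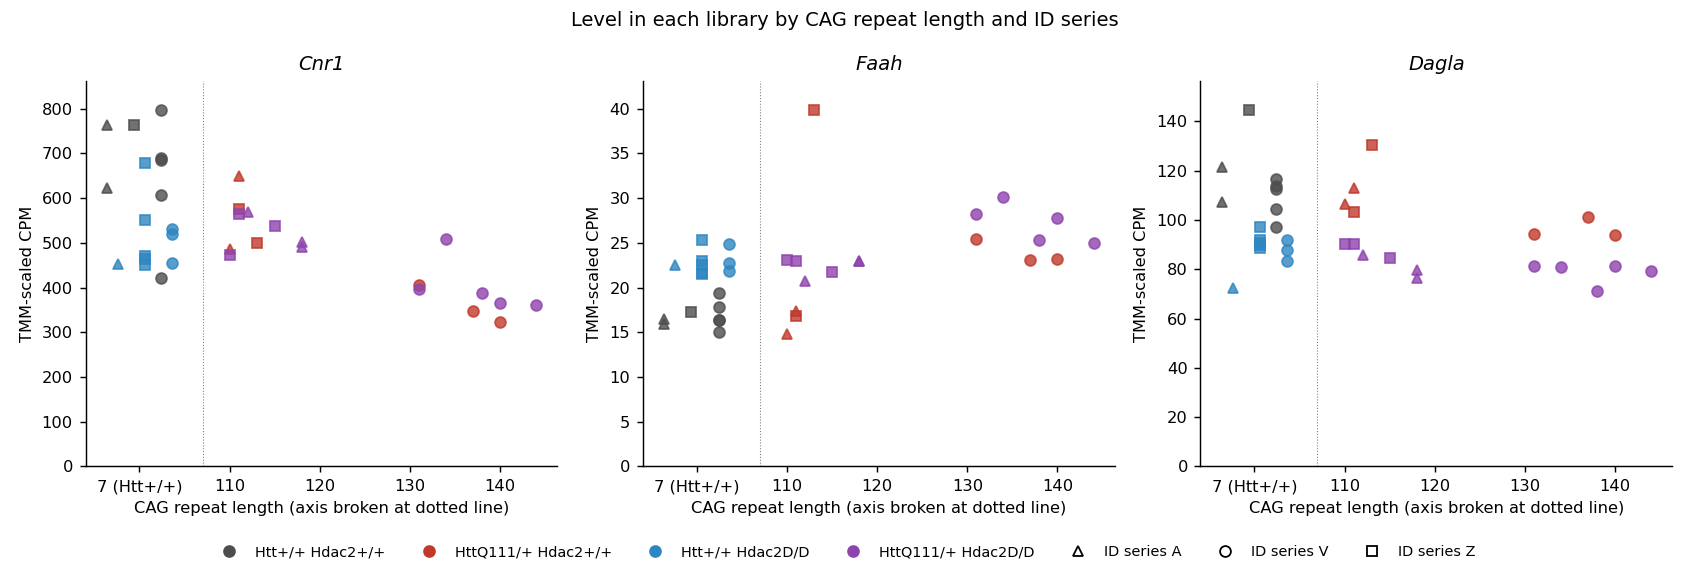
TMM-scaled CPM of Cnr1, Faah and Dagla in each library by constitutive CAG repeat length, coloured by group and shaped by ID series. Htt+/+ mice, all with 7 repeats, are spread by series left of the dotted line, where the axis is broken. Cnr1 is lowest and Faah mostly highest at 131 to 144 repeats, and the single Faah value of 39.9 CPM is replicate 7 of HttQ111/+ Hdac2+/+.

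No member differed between males and females past the adjusted threshold, with edgeR, DESeq2 or limma-voom, where 0.104% of genes did with edgeR. At an unadjusted p under 0.05, 2 members were lower in males, where 8.20% of genes passed in either direction. These were Napepld (−0.12, SE 0.052, p = 0.0248) and Dagla (−0.05, SE 0.024, p = 0.0447), with adjusted p values of 0.496 and 0.592 from edgeR. Cnr1 was at 516 ± 121 CPM in males (SD, n = 22) and 540 ± 131 CPM in females (SD, n = 13).

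Among 32 other genes of the pathway, chosen with results of these data known, 27 had enough counts to be tested, and Gpr55, Gpr18, Gpr119, Trpv1 and Alox15 did not. With the loss of Hdac2, 4 were higher and 5 lower in Htt+/+ mice, and 3 were higher and 7 lower in HttQ111/+ mice, against the 17.8% and 16.5% of all genes given above. Median log2 fold changes were 0.00 and −0.03 over the 27, and −0.00 over all genes in both. The receptors and effectors upstream of 2-AG release held most of the lower genes, 3 of 7 in Htt+/+ and 4 of 7 in HttQ111/+ mice, with 0 higher. They were Grm5 (−0.32 and −0.25) and Chrm1 (−0.14 and −0.16), receptors that couple to Gq, and phospholipase C-β1, Plcb1 (−0.38 and −0.27), whose product DAGLα uses. Gna11, a Gq-type α subunit, passed in HttQ111/+ mice (−0.08, adjusted p = 0.0233).

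Plcb1 had 292 to 359 CPM in Htt+/+ Hdac2+/+ and 202 to 256 CPM in Htt+/+ Hdac2D/D libraries, with no overlap, as for 4.70% of all genes tested. Among the G proteins of the receptor, Gnao1 was lower (−0.21 and −0.19) and Gnai2 higher (0.11 and 0.13). Fabp3, a fatty acid binding protein, was higher (0.57 and 0.45), at 14.2 ± 1.30 (SD, n = 8), 15.7 ± 2.21 (SD, n = 7), 20.9 ± 1.31 (SD, n = 9) and 21.3 ± 2.80 CPM (SD, n = 11) in the 4 groups in the order used above. The phosphodiesterase gene Gdpd1 was higher in both (0.11 and 0.12), and Cnrip1, whose product binds CB1, in Htt+/+ mice (0.17, adjusted p = 0.0228). The phospholipase Ddhd2 was lower in both (−0.20 and −0.12) and the lipase gene Abhd16a in HttQ111/+ mice (−0.13, adjusted p = 0.00468). With both alleles against neither, 4 pathway genes were higher and 5 lower, against 21.2% of all genes. None of the 27 passed in either Htt comparison with edgeR. At an unadjusted p under 0.05, 4 passed in Hdac2+/+ and 1 in Hdac2D/D mice, against 10.9% and 7.52% of all genes.

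Across the 35 libraries, whose levels share group, depth and tissue composition, log2 CPM of Cnr1 and Dagla had a Pearson r of 0.58 and of 0.54 with group means subtracted. Cnr1 and Faah had −0.57, and −0.32 with group means subtracted. Dagla and Faah changed from −0.45 to 0.12, and Dagla and Mgll had 0.56 and 0.50. Of the 13672 genes whose mean log2 CPM was 1 or more, those most like Cnr1 were Rxrg (r = 0.90), Ppp1ca (0.88) and Drd2 (0.88). Those most like Dagla were Atp2b2 (0.94), Rbfox3 (0.94) and Efr3b (0.91), and those most like Faah were Kcnj3 (0.88), Col11a1 (0.87) and Slitrk1 (0.85). For Mgll they were Ephb6 (0.86), Ap2a2 (0.76) and Itpa-ps1 (0.76), and for Abhd12 Ube2m (0.85), Eif5a (0.83) and Fis1 (0.82). For Daglb (Rcor2, Rap1gap2 and Srcin1), Napepld (Pdlim1, Nxph1 and Myo1d) and Abhd6 (Spata2, Cirh1a and Pcdh1) the highest r were 0.76, 0.71 and 0.77. These correlations are descriptions with no test.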

How the data were processed

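Striatal RNA of 35 mice was sequenced as stranded mRNA libraries on a HiSeq instrument with paired reads. The authors aligned the reads with GSNAP to GRCm38 and counted unique alignments over whole gene intervals, introns included, with bedtools, and the deposited counts are raw. Whether strand was used is not given in the sources used here. Groups came from the labels. Left out were the ERCC spike-ins, the 2 mitochondrial rRNAs and 6152 genes of 250 nt or less.

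The counts were scaled with TMM and tested with edgeR 4.0.16 (quasi-likelihood F test, R 4.3.3). Each pair of groups was compared in its own fit of all 35 libraries, and the interaction and both average effects shared 1 fit. Terms were group and 9 surrogate variables from sva 3.50.0, estimated anew for each fit (8 in the fits for sex and ID series). A gene was tested if all libraries of 1 or more compared groups had 6 counts or more, p-values were adjusted by Benjamini-Hochberg over all genes tested, and the threshold was 0.05. Log2 CPM used a prior count of 2, and 95% intervals were set from the SE. Alternatives were other covariates, a replicate block, males only, only the groups compared, RLE size factors, other count filters, DESeq2 1.42.0 and limma-voom (limma 3.58.1). Scripts were tested on simulated data. No sample column was left unused. All 8 genes are named, and of the pathway list those past the threshold; 1 gene of that list and 1 cell type marker are not reported here. The members and lists were chosen with earlier results of these data known, and leaving out single libraries and the split by ID series were added after seeing the data.

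Depth was 50339179 to 76939791 counts on genes per library (median 56630712), and even Napepld, the lowest member, had at least 390 counts in each.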

Additional observations from a re-analysis of the deposited data

Results flagged for a closer look

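Cnr1 was at 678 CPM in replicate 5 of Htt+/+ Hdac2D/D, far from the next of the 9 libraries at 551 CPM. Mgll was at 186 CPM in replicate 9 of Htt+/+ Hdac2+/+, where the next of the 8 libraries had 162 CPM. Faah was at 39.9 CPM in replicate 7 of HttQ111/+ Hdac2+/+, where the next of the 7 libraries had 25.4 CPM, and that library also held the highest sum of cortical projection neuron markers of all, 385 CPM. Such a gap was looked for in 24 groups of values, and chance alone gives about 1 in 20. The 11 libraries of HttQ111/+ Hdac2D/D were not checked for any gene, since the check left out groups of that size. The Htt effect on Cnr1 differed between ID series V and series A and Z by −0.50 (SE 0.13, adjusted p = 0.0434 from edgeR), with the lower level in 8 HttQ111/+ libraries of series V, and it did not pass without replicate 7 of HttQ111/+ Hdac2+/+ (−0.46, adjusted p = 0.266).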

How the results depend on the processing

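Of the 1040 member values recomputed under the alternatives, 955 kept their direction and side of the threshold, 37 fell back from it, 47 moved past it and 1 reversed; a change of sign where neither value passed was counted as kept. The reversed value was Faah in HttQ111/+ Hdac2D/D against HttQ111/+ Hdac2+/+ mice, at −0.10 (adjusted p = 0.849) with extraction date replacing the surrogate variables, against 0.42. Dagla passed in all 15 alternatives in Htt+/+ mice (−0.46 to −0.36) and in 14 of 15 in HttQ111/+ mice, Faah in 14 and 11 of 15. Extraction date nearly follows the Hdac2 genotype, so fits with it leave few mice to tell both apart. Depth did not limit the members, each with at least 390 counts per library, and the surrogate variables are estimated from the same libraries.

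The number of members past the threshold moved by over 1.5 times in the fits that follow and by less or not at all in the others, where it was 2 to 4 for Hdac2 in Htt+/+ mice, 2 to 4 in HttQ111/+ mice, 2 to 4 with both alleles and 4 to 7 for the average Hdac2 effect. With extraction date, 1 passed for Hdac2 in Htt+/+ mice (3 before), 0 for Hdac2 in HttQ111/+ mice (3), 2 for Htt in Hdac2+/+ mice (0), 1 with both alleles against neither (3), 0 for the average Hdac2 effect (5) and 2 for the average Htt effect (0). With ID series and sex, 2 passed for Htt in Hdac2+/+ mice and 2 for the average Htt effect. With at least 1 CPM required, 5 passed for Hdac2 in HttQ111/+ mice and 5 with both alleles. With both alleles, 5 passed without surrogate variables, 5 with sex in their place and 6 with only the groups compared. For the average Hdac2 effect, 2 passed in males only and 2 with the replicate block. For the average Htt effect, 1 passed with DESeq2, 1 with limma-voom and 1 without replicate 4 of Htt+/+ Hdac2+/+. For the difference between ID series, 0 passed with sex in place of the surrogate variables (1 before). The causes of these changes were not tested.

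Among all genes, 3056 passed for Hdac2 in Htt+/+ mice, against 822 with extraction date, 843 with the replicate block, 1970 in males only and 5094 with only the groups compared. In HttQ111/+ mice 2841 passed, against 331 with extraction date and 1711 in males only. For Htt in Hdac2+/+ mice 69 passed, against 0 with only the groups compared or the replicate block, 10 in males only, 27 with at least 1 CPM, 34 with no count filter, 31 without replicate 4 and 37 without replicate 9 of Htt+/+ Hdac2+/+, 154 with DESeq2, 419 with extraction date and 858 with ID series and sex. For Htt in Hdac2D/D mice 1 passed, against 0 to 45 in the alternatives, and for the interaction 1, against 0 to 5. With both alleles 3627 passed, against 798 with extraction date, 1641 with the block, 2263 in males only and 5619 with only the groups compared. For the average Hdac2 effect 4341 passed, against 802 with extraction date and 2218 with the block. For the average Htt effect 220 passed, against 5 with the block, 119 in males only, 144 with no count filter, 367 with DESeq2, 403 with extraction date and 641 with ID series and sex. For sex 18 passed, against 52 with DESeq2. For Htt in series A and Z 33 passed, against 0 in both other fits, and for the difference between the series 342, against 21 with sex and 95 without replicate 7 of HttQ111/+ Hdac2+/+.

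Replicate numbers are shared between the groups, and r between same-numbered libraries ran from −0.21 to 0.29 over 45 pairs (median 0.042). Of these, 15 exceeded 0.1, and 8 of 35 libraries correlated best with their own number. No chance level was set for these values, so they cannot decide whether the numbers pair any mice. With the replicate block, 2 members passed for Hdac2 in Htt+/+ mice, 3 in HttQ111/+ mice, 0 for Htt in either Hdac2 genotype, 2 with both alleles, 2 for the average Hdac2 effect (5 without it), and 0 for the interaction and the average Htt effect.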
